A study of Mus musculus with 12 samples.

Results

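The response of gRc-treated C2C12 myotubes to hydrogen peroxide was read from 6 of the 12 RNA-seq libraries of the study, the 3 labelled gRc+H2O2 against the 3 labelled gRc. C2C12 is a single mouse myoblast line whose cells fuse into multinucleated myotubes when serum is lowered, and gRc is ginsenoside Rc, a saponin of ginseng. The cells were differentiated for 5 days and carry a cell-type tag that reads myoblasts. The gRc libraries came from cells kept 24 h in 10 µM gRc without peroxide, and the gRc+H2O2 libraries from cells that had 18 h of 10 µM gRc and then 6 h of 0.25 mM H2O2, although a tag on the latter gives 24 h of gRc pretreatment. Every cell in this comparison had therefore been given gRc, and the groups differed in the peroxide. These times do not say whether gRc stayed on during the peroxide, so the hours of gRc may differ as well. The other 6 libraries, 3 of vehicle and 3 of vehicle followed by H2O2 on the same schedule, served to set the response without gRc beside it. Nothing in the labels states that replicates were grown separately. The p-values therefore measure how far the deposited replicates scatter, and that scatter may be technical only.

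The 6 libraries held between 24771894 and 31409066 counted fragments. Levels are given as CPM, counts scaled to a common library size by the TMM factors of edgeR, and changes as log2 fold changes of gRc+H2O2 over gRc with a standard error (SE). An adjusted p under 0.05 in edgeR's quasi-likelihood test counts as passing, and "rose" and "fell" are used only of genes that passed. Genes of differentiated muscle marked the libraries as myotubes: the 9 myotube markers summed to 15500 to 22400 CPM with gRc and 13700 to 17300 CPM with gRc+H2O2, and none of the 9 passed the test. The markers of endothelial cells and of macrophages or leukocytes summed to at most 2.03 and 3.34 CPM. gRc replicate 3 stood apart from the other libraries of its group, at 84.2 on the principal component with 43.1% of the variance, where gRc replicates 1 and 2 lay at -0.1 and -18.8. Its mRNAs of the mitochondrial genome took 4.23% of the counts against 0.457% and 0.447% in replicates 1 and 2. Results without it are given for some of the lists that it changed, and not for all.

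Peroxide that enters a cell oxidises thiols, and the cell answers on several levels. The sensor KEAP1 then releases the transcription factor NRF2, which switches on the genes of glutathione and thioredoxin metabolism. Kinases that phosphorylate the initiation factor eIF2 slow general translation while favouring that of ATF4, the factor of the integrated stress response, and damage to DNA stabilises p53. In muscle these programmes meet the genes of the contractile apparatus and of myoblast self-renewal, which were therefore listed as well.

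Of 14838 genes tested, 2332 (15.7%) passed in gRc+H2O2 against gRc. Of these 1123 (7.57% of the genes tested) rose and 1209 (8.15%) fell, and 499 (3.36%) rose and 525 (3.54%) fell by at least 2-fold. At least 4-fold changes were more often rises, with 142 that rose and 75 that fell. The median log2 fold change of all genes was -0.04, and 47.0% of genes lay above 0. Protein-coding genes passed in 17.0% of 12968 cases and pseudogenes in 2.83% of 671. Libraries of the groups did not overlap for 5746 genes (38.7%), of which 2847 (19.2%) were higher and 2899 (19.5%) lower with gRc+H2O2. The number of genes that passed was 1205 without gRc+H2O2 replicate 2, 1272 without gRc+H2O2 replicate 1, 1280 without gRc+H2O2 replicate 3 and 1409 without gRc replicate 1, whereas it was 2029 without gRc replicate 3. With gRc replicate 3 and vehicle replicates 1 and 3 left out together, an alternative chosen after the data were seen, it was 5120.

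**Figure D1:**
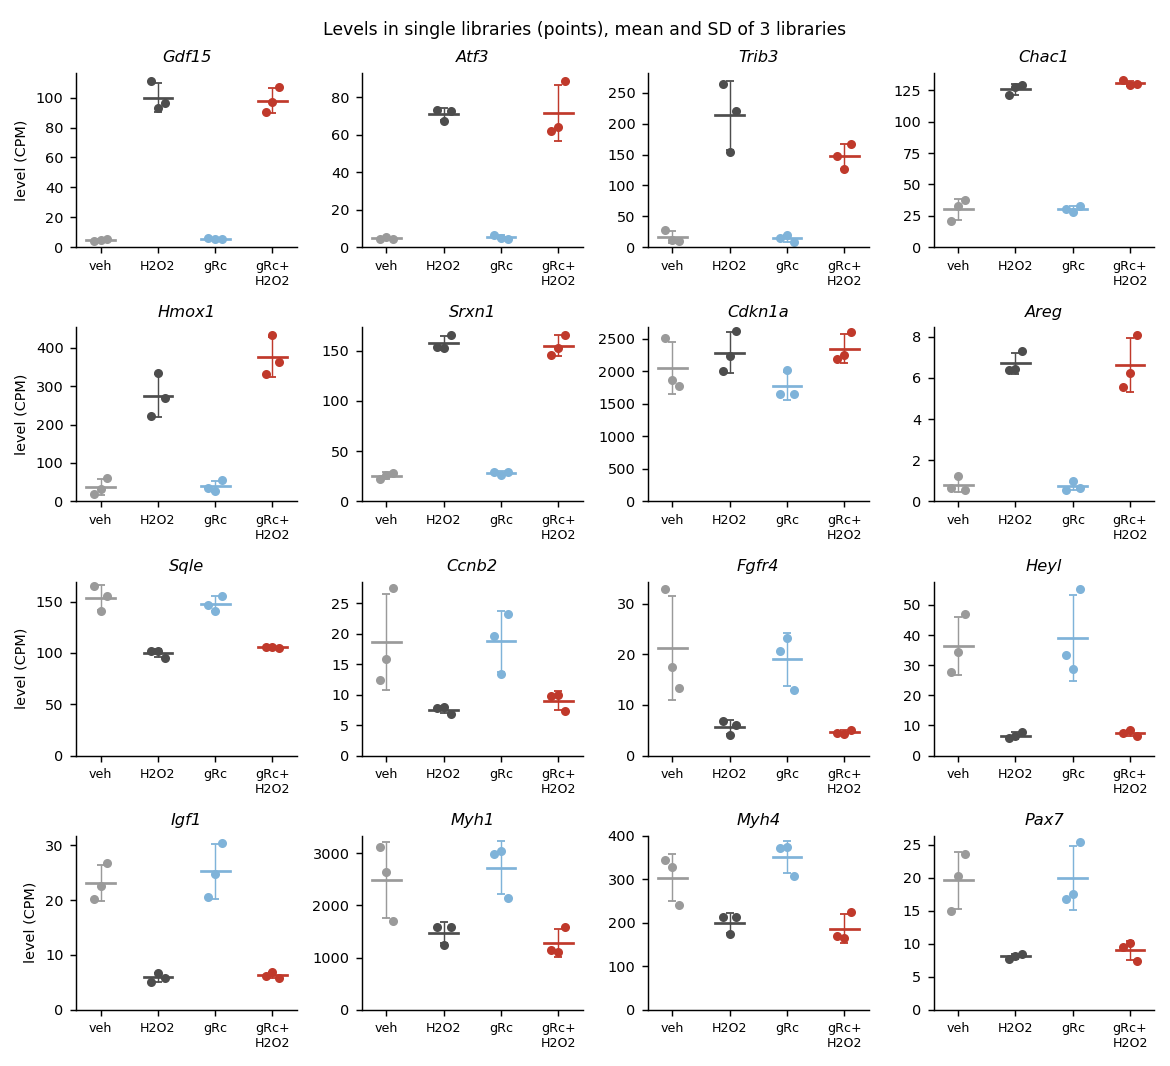
Levels of 16 genes in CPM (vertical axes, each from 0) in single libraries (points) of vehicle (veh), H2O2, gRc and gRc+H2O2, with the mean (line) and SD (bars) of 3 libraries. Gdf15, Atf3, Chac1 and Srxn1 separate the peroxide groups from the others without overlap, Cdkn1a differs little, and Igf1, Heyl and Pax7 are lower in every gRc+H2O2 library than in every gRc library.

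The genes of the integrated stress response rose together. Of 21 listed genes, all tested, 15 rose and 0 fell, with a median log2 fold change of 1.60 against -0.04 over all genes. Gdf15 (chromosome 8, 70629393 to 70632456 on GRCm38), which encodes a secreted stress hormone, stood at 6.47, 5.24 and 5.62 CPM in the gRc libraries and at 90.2, 96.8 and 107 CPM in the gRc+H2O2 libraries. The groups lay far apart, and the log2 fold change was 4.08 (SE 0.15, adjusted p = 3.24e-07). Trib3, a pseudokinase that restrains ATF4, had 14.9, 19.0 and 8.54 CPM with gRc and 147, 127 and 167 CPM with gRc+H2O2, a rise of 3.38 in log2 units with an SE of 0.43 (adjusted p = 6.44e-04). Chac1, an enzyme that degrades glutathione, was even within each group, at 30.5, 27.8 and 32.9 CPM with gRc and 133, 129 and 130 CPM with gRc+H2O2 (log2 fold change 2.10, SE 0.19, adjusted p = 8.91e-05). The spread within each group of Chac1 was small beside the distance between the groups.

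Several transcription factors of this branch rose as well. Atf4 itself went from 442, 419 and 398 CPM to 1100, 1200 and 1130 CPM (log2 fold change 1.45, SE 0.24, adjusted p = 0.00269). Ddit3, which encodes the factor CHOP, rose by 2.53 on the log2 scale (SE 0.22) and Cebpg, a partner of ATF4, by 1.14. Atf5 was higher by 0.91 on the log2 scale (SE 0.32), which did not pass (adjusted p = 0.0844), although its libraries did not overlap. Ppp1r15a, whose product GADD34 brings the phosphatase back to eIF2, rose by 2.35 (SE 0.15), from 44.2 ± 3.06 to 225 ± 27.8 CPM (SD, n = 3 each), while the constitutive subunit gene Ppp1r15b rose by 0.72. Sesn2, which restrains mTORC1, rose by 2.76 (SE 0.25), Ndrg1 by 1.85 (SE 0.11) and the receptor gene Vldlr by 2.13 (SE 0.17).

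Amino acid supply followed the same direction. Of 22 listed ATF4 targets in amino acid synthesis and transport, 21 were tested, 16 rose, 0 fell and 21 of 21 lay above 0, with a median of 1.15. Cth, which encodes cystathionine gamma-lyase and so makes cysteine, rose most among the genes of this list, from 2.05, 1.95 and 1.32 CPM to 15.1, 17.4 and 13.6 CPM (log2 fold change 3.12, SE 0.22, adjusted p = 1.97e-05). Slc3a2, the heavy chain shared by several amino acid transporters, rose by 1.88 (SE 0.14), its partners Slc7a5 by 1.46 and Slc7a11, the cystine carrier, by 1.43 (SE 0.37, adjusted p = 0.0228), and the arginine carrier Slc7a1 by 1.65. Asns, asparagine synthetase, rose by 1.53 (SE 0.30) and Psat1 of serine synthesis by 0.60, whereas Phgdh, the entry enzyme of serine synthesis, overlapped between the groups (log2 fold change 0.58, SE 0.41, adjusted p = 0.398). Among 20 tRNA synthetase genes 9 rose and 0 fell, with a median of 0.51 and the largest change at Sars (1.16, SE 0.20). The number of synthetases that rose was 3 without gRc+H2O2 replicate 3, 4 without gRc+H2O2 replicate 1, and 5 without gRc+H2O2 replicate 2 or gRc replicate 3.

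Promoters bear on these genes, because ATF4 and its partners bind a short composite element, the CARE. Its letters TTGCATCA were searched on both strands in the 250 bases before the start of 10582 genes tested (71.3% of 14838) that have a RefSeq window on GRCm38.p6. They were present in 0.586% of these windows, in 2.8% of the windows of genes that rose by at least 2-fold (10 of 357) and in 0.272% of those that fell by at least 2-fold (1 of 367). In the integrated stress response list 3 of 19 windows held them (Chac1, Fgf21 and Nupr1), in the amino acid list 3 of 16 (Slc7a11, Pycr1 and Got1) and among the tRNA synthetases 2 of 12 (Aars and Tars). These are matches of letters and not bound sites. The stretches around the match are shown for 4 genes that rose, 5′ to 3′ on the strand of the gene and clear of annotated exons, with the CARE letters in capitals. They are chr1:191183341-191183543 (minus strand) for Atf3, chr2:119350992-119351156 (plus strand) for Chac1, chr3:50443615-50443760 (minus strand) for Slc7a11 and chr8:94386217-94386424 (plus strand) for Herpud1.
Atf3: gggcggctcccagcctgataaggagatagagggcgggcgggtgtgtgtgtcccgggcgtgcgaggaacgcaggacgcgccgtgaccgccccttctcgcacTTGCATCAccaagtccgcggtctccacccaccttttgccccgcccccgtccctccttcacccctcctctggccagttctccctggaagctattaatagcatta
Chac1: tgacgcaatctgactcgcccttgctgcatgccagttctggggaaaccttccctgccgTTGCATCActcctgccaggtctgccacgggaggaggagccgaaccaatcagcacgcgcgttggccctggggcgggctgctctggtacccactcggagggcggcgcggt
Slc7a11: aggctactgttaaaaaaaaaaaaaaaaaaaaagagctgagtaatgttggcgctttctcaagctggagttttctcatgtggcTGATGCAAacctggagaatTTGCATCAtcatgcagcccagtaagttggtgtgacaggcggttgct
Herpud1: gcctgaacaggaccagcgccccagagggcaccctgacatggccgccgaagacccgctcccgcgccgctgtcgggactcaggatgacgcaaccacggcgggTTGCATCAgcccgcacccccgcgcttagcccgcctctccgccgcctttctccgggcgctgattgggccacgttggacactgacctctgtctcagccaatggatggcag
The match began 110 bases before the start of Atf3, 193 before that of Chac1 and 112 before that of Herpud1, and Slc7a11 carried 2 matches, the first of them reading as the reverse complement, 66 and 47 bases before its start. The 4 genes rose by 3.75, 2.10, 1.43 and 1.17 on the log2 scale in the order Atf3, Chac1, Slc7a11 and Herpud1.

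Genes under NRF2 rose as well. Of 30 detoxification targets, all tested, 18 rose and 0 fell, 30 of 30 lay above 0 and the median was 1.17. Srxn1, sulfiredoxin, which restores over-oxidised peroxiredoxins, had 29.7, 26.1 and 29.3 CPM with gRc and 146, 153 and 166 CPM with gRc+H2O2 (log2 fold change 2.45, SE 0.13, adjusted p = 4.49e-06). Hmox1, heme oxygenase, varied more, with 34.1, 27.5 and 54.7 CPM against 332, 432 and 363 CPM (log2 fold change 3.28, SE 0.40, adjusted p = 5.70e-04). Gsta1, a glutathione transferase, had 2.23, 2.03 and 2.18 CPM against 30.8, 25.8 and 26.0 CPM (log2 fold change 3.68, SE 0.15, adjusted p = 3.24e-07). Reads of Gsta1 can be shared with its near-identical relative Gsta2, whose 0.288, 0.569 and 0.161 CPM against 4.04, 1.86 and 4.11 CPM did not pass (adjusted p = 0.0747), so the division between the pair is uncertain.

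Both subunits of the enzyme that starts glutathione synthesis rose, the modifier gene Gclm by 1.97 (SE 0.12) and the catalytic gene Gclc by 1.31 (SE 0.16). Thioredoxin reductase, Txnrd1, went from 137 ± 18.8 to 587 ± 54.8 CPM (log2 fold change 2.10, SE 0.17). The NADPH producers Pgd and G6pdx rose by 1.52 and 0.85, glutathione reductase Gsr by 0.93, and the quinone reductase Nqo1 by 2.25 (SE 0.53, adjusted p = 0.0160). Gsta4, which conjugates products of lipid peroxidation, rose by 3.27 (SE 0.35). Among the regulators, 4 of 9 tested rose: Nfe2l2, the NRF2 gene, by 1.31 (SE 0.31), the small MAF partners Mafg and Maff by 1.20 and 1.54, and the competing repressor Bach1 by 0.69. Keap1, the sensor, had a log2 fold change of -0.01 (SE 0.33) with overlapping libraries. The call of Nfe2l2 was lost without gRc replicate 1 (1.19, adjusted p = 0.0656) and without gRc+H2O2 replicate 2 (1.24, adjusted p = 0.0572).

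The enzymes that remove peroxide and superoxide directly did not share this rise. Of 27 scavenger genes tested 4 rose and 3 fell, with a median of -0.02, where 7.57% of all genes rose and 8.15% fell. The 4 that rose were Srxn1, Txnrd1 and Sesn2, which other lists hold as well, and Prdx6 (0.80, adjusted p = 0.0387). Catalase, Cat, had 38.6, 34.1 and 64.3 CPM with gRc and 71.0, 87.1 and 61.6 CPM with gRc+H2O2, which overlap (log2 fold change 0.68, SE 0.31, adjusted p = 0.177). Sod1 (0.32, SE 0.30) and Gpx1 (-0.38, SE 0.26) did not pass either. The genes of this list that fell were Txnip, the inhibitor of thioredoxin (-0.60, SE 0.15), Sesn3 (-0.91, and -0.64 with adjusted p = 0.229 after an effective-length correction) and Glrx (-0.64). The count of 3 was 1 without gRc replicate 2 or any of the 3 gRc+H2O2 libraries. The metallothionein gene Mt1 rose from 232 ± 64.8 to 909 ± 79.9 CPM (log2 fold change 1.97, SE 0.38), together with the zinc exporter Slc30a1 (1.20, SE 0.21), whereas Mt2 overlapped, its gRc replicate 3 at 125 CPM lying above gRc+H2O2 replicate 3 at 104 CPM. In the heme and iron list only Hmox1 passed, 1 of 17, which is near the 7.57% of all genes that rose, and 2 rose without vehicle replicate 1.

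The letters TGANTCA of the AP-1 site, which also lie inside many NRF2 elements, were found in 4.48% of all windows, in 7.28% of those of genes that rose and 7.36% of those of genes that fell by at least 2-fold, and in 4 of 24 windows of NRF2 targets (Srxn1, Osgin1, Gstp1 and Pir). The fuller element TGACNNNGC, which a TGACTCA followed by GC also fulfils, stood in 12.1% of all windows and in 4 of 24 of the NRF2 targets. It stood in 15.4% of the windows of genes that rose and 10.6% of those that fell by at least 2-fold. The letters TGACGTCA, also searched, had shares of 2.76%, 3.92% and 0.545% in all windows, these rises and these falls. Srxn1 (chr2:152105379-152105515, plus strand) carried TGANTCA at 102 and 45 bases before its start and Osgin1 (chr8:119436950-119437117, plus strand) at 97 bases. Both are shown with these letters in capitals because both genes rose and hold the match in the window.
Srxn1: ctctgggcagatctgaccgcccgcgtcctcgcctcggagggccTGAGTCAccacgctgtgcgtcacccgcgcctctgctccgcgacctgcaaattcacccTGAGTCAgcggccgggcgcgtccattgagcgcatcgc
Osgin1: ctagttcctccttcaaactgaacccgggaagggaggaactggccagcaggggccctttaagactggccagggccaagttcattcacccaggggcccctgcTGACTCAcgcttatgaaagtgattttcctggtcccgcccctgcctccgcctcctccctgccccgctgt
Osgin1, a growth inhibitor that is induced by oxidised lipids, rose from 20.8 ± 1.55 to 77.6 ± 8.14 CPM (log2 fold change 1.90).

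**Figure D2:**
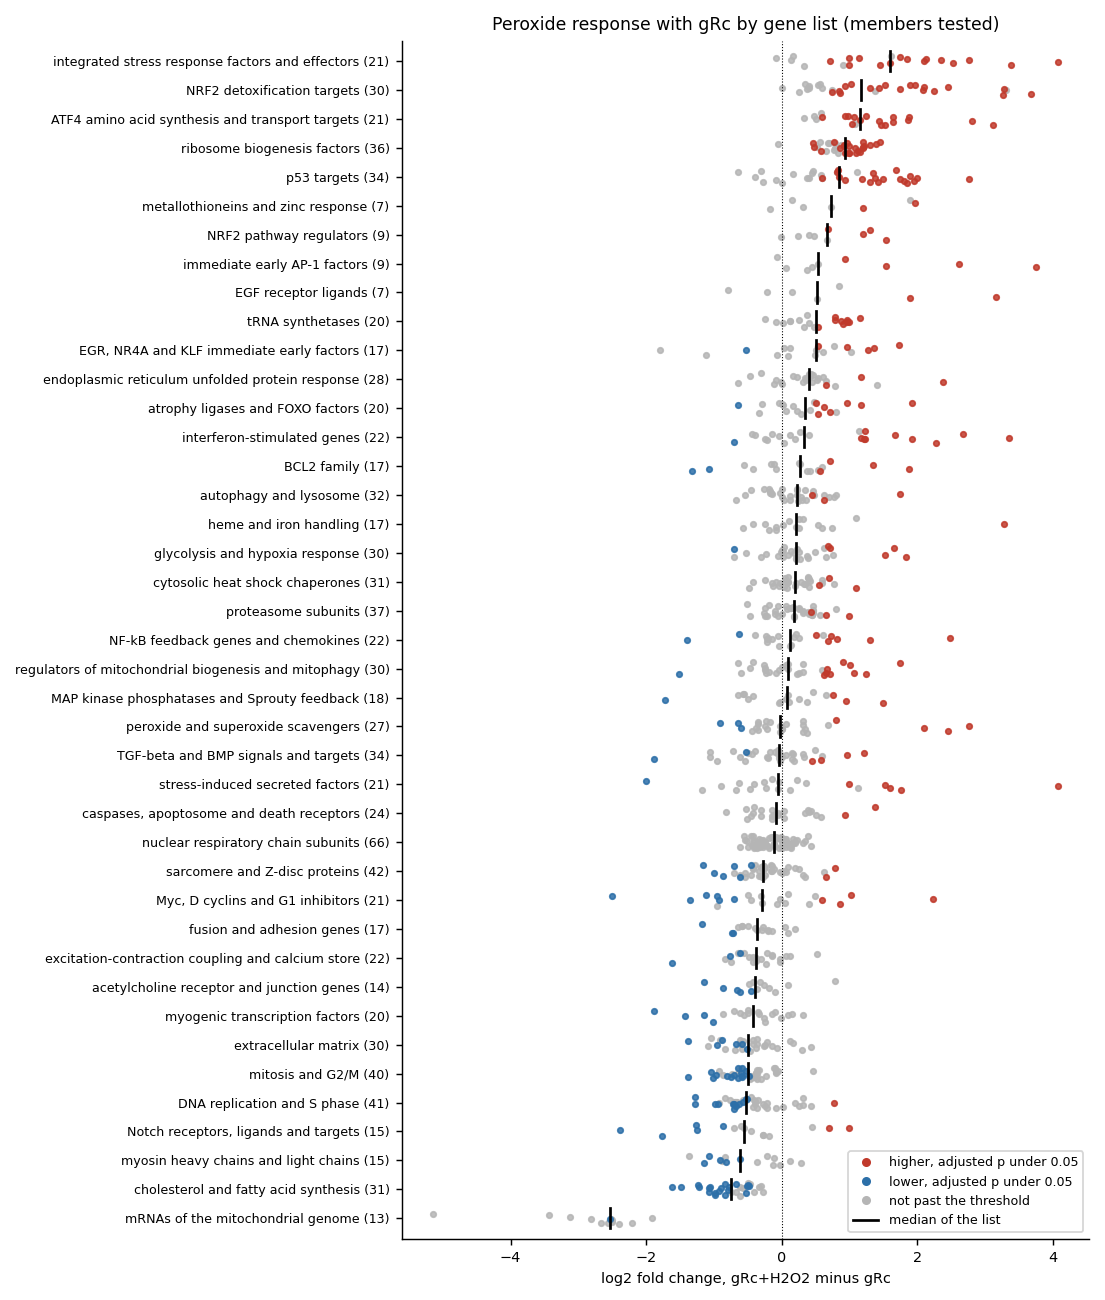
Log2 fold changes of gRc+H2O2 over gRc (horizontal axis) for every tested member of the gene lists (rows, number tested in brackets), red for genes that rose, blue for genes that fell, grey for genes that did not pass, with the list's median as a black bar. The integrated stress response list has the highest median at 1.60, the cholesterol list lies wholly below 0 at a median of -0.75, and the 13 mitochondrial mRNAs spread widely around -2.53.

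Some immediate early genes were higher at the end of the 6 h of peroxide. Of 9 tested AP-1 factors 4 rose and 0 fell. Atf3, a repressor induced by many stresses, went from 6.62, 4.67 and 4.66 CPM to 62.1, 64.3 and 88.7 CPM (log2 fold change 3.75, SE 0.20, adjusted p = 4.49e-06), and Fosl1, the FRA-1 gene, from 9.39, 20.6 and 12.5 CPM to 74.3, 87.8 and 97.5 CPM (2.61, SE 0.26). Maff rose by 1.54 and Fosb by 0.94, Fosb not without gRc replicate 1 (0.87, adjusted p = 0.0545) or gRc+H2O2 replicate 3 (0.75, adjusted p = 0.0586). Of 17 EGR, NR4A and KLF genes tested 5 rose, among them Nr4a3 (1.73, SE 0.30) and Klf9 (1.36), and 1 fell, Egr2 (-0.52). The count of 5 was 1 without gRc replicate 1, 2 without gRc replicate 2, gRc+H2O2 replicate 2 or gRc+H2O2 replicate 3, and 3 without gRc+H2O2 replicate 1, vehicle replicate 2, H2O2 replicate 2 or H2O2 replicate 3. Klf9 missed the threshold without gRc replicate 1 (1.26, adjusted p = 0.0560). Egr2 passed neither without gRc replicates 2 or 3 nor without any of the 3 gRc+H2O2 libraries.

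Some ligands of the EGF receptor and some brakes of its kinase cascade passed, where 7.57% of all genes rose and 8.15% fell. Areg, amphiregulin, had 0.575, 0.975 and 0.674 CPM with gRc and 5.54, 6.25 and 8.07 CPM with gRc+H2O2 (log2 fold change 3.16, SE 0.32, adjusted p = 1.88e-04), and Ereg, epiregulin, rose by 1.89 (SE 0.47, adjusted p = 0.0200). The other 5 tested ligands did not pass. The call of Ereg was lost without either of gRc replicates 1 and 2 (1.70 and 1.72) or gRc+H2O2 replicates 1 and 2 (1.91 and 1.78). Among 18 MAP kinase phosphatase and Sprouty genes, Dusp4 (1.49, SE 0.22), Dusp5 (0.95, SE 0.17) and Dusp10 (0.75) rose, while Spry1, an inhibitor of receptor tyrosine kinase signalling, fell from 29.2, 31.6 and 29.9 CPM to 10.4, 8.87 and 8.37 CPM (-1.72, SE 0.13, adjusted p = 3.86e-05). The other 14 of these 18 genes did not pass, and the median of the list was 0.08. The call of Dusp10 was lost without gRc replicates 1 or 2, any of the 3 gRc+H2O2 libraries, vehicle replicate 2 or H2O2 replicate 3 (0.65 to 0.80, adjusted p between 0.0579 and 0.148).

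Targets of p53 rose in 19 of 34 tested cases and fell in 0, with a median of 0.84. Plk2, a kinase of the checkpoint response, had 127, 127 and 116 CPM with gRc and 375, 458 and 506 CPM with gRc+H2O2 (log2 fold change 1.85, SE 0.14, adjusted p = 3.17e-05). Mdm2, the ubiquitin ligase that removes p53, rose from 169 ± 51.1 to 631 ± 83.6 CPM (1.90, SE 0.26), and Zmat3, Plk3 and Trp53inp1 by 1.75, 1.69 and 1.95. Cdkn1a, the best known target and an inhibitor of cyclin-dependent kinases that differentiating muscle already uses, stood at 1650, 2020 and 1650 CPM with gRc and at 2180, 2250 and 2600 CPM with gRc+H2O2. These libraries did not overlap, yet the log2 fold change of 0.40 (SE 0.19) did not pass (adjusted p = 0.193).

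Of the genes that carry out apoptosis, several of the BCL2 family moved. In the BCL2 family of 17 tested genes, Bcl2l11 (BIM) rose from 6.37, 4.63 and 6.65 CPM to 20.6, 22.2 and 22.3 CPM (1.88, SE 0.16, adjusted p = 7.22e-05), and Bbc3 (PUMA), Bnip3 and Bid rose by 1.35, 0.72 and 0.56. The 4 rises of the family became 2 without gRc+H2O2 replicate 2 or with an effective-length correction, and 1 with limma on log2(TPM + 0.5), where Bnip3 missed the threshold (0.68, adjusted p = 0.0549). The survival gene Bcl2 fell from 11.1, 11.6 and 17.8 CPM to 5.54, 5.90 and 4.68 CPM (-1.33, SE 0.21), and so did Bmf, a death promoter (-1.07). Bax overlapped between the groups (0.60, SE 0.40, adjusted p = 0.363). Of 24 caspase, apoptosome and death receptor genes 2 rose, the receptor Tnfrsf10b (1.38, SE 0.17) and the apoptosome scaffold Apaf1 (0.94), and 0 fell. These rises are near the 7.57% of all genes that rose. Calls of Apaf1 and Bmf were lost when counts were corrected for effective length (0.69, adjusted p = 0.518, and -0.51, adjusted p = 0.478).

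Genes tied to growth moved in both directions. Factors of ribosome biogenesis rose in 23 of 36 cases and fell in 0, with a median of 0.93, among them the small-subunit processome gene Utp20 (60.3, 53.8 and 66.9 CPM against 123, 121 and 117 CPM, log2 fold change 1.00, SE 0.11), Nop58 of the box C/D particles (1.39, SE 0.20) and Wdr43 (1.45, SE 0.22). Myc, which drives many of these genes in other cells, rose from 27.9, 31.2 and 42.6 CPM to 152, 169 and 159 CPM (2.24, SE 0.26, adjusted p = 4.03e-04). Its antagonist Mxd3 fell from 12.9, 12.9 and 6.39 CPM to 2.20, 1.61 and 1.81 CPM (-2.51, SE 0.45), and Mycl and Mxd4 fell as well, Mycl not with the effective-length correction (-1.01, adjusted p = 0.139). Cyclin D genes divided, with Ccnd1 (0.60, SE 0.15) and Ccnd2 (1.02, SE 0.21) rising and Ccnd3, the D cyclin of differentiated muscle, falling (-1.11, SE 0.30). Of the 21 genes of this list 4 rose and 6 fell, and 2 rose without gRc replicate 1 or any of the 3 gRc+H2O2 libraries.

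Genes of the cell cycle itself were lower. Among 41 DNA replication genes 12 fell and 1 rose, with a median of -0.52, and among 40 mitosis genes 15 fell and 0 rose, with a median of -0.50. Ccne1, cyclin E1, went from 8.27, 7.23 and 8.19 CPM to 3.53, 3.09 and 3.09 CPM (-1.28, SE 0.18, adjusted p = 0.00115), and Ccna2, cyclin A2, from 57.5, 63.0 and 55.1 CPM to 33.8, 30.6 and 24.9 CPM (-0.97, SE 0.14, adjusted p = 0.00154). Cdc25c, the phosphatase that opens mitosis, fell by 1.38 on the log2 scale (SE 0.28), Tk1, thymidine kinase, by 1.28 (SE 0.19) and the motor gene Kif11 by 0.65 (SE 0.11). The exception was Mcm7 of the replicative helicase, which rose by 0.77 (SE 0.16) while its partner Mcm2 fell (-0.52). In bulk RNA, fewer cycling cells and less of these RNAs per cell cannot be told apart. The 6 myoblast markers summed to 259 to 313 CPM with gRc and to 171 to 213 CPM with gRc+H2O2, with 1 of 6 past the test (Pax7), and the part of that difference in the cell-cycle lists was not tested. The count of mitosis genes that fell was 3 without gRc+H2O2 replicate 2, 6 without gRc+H2O2 replicate 1, gRc+H2O2 replicate 3 or gRc replicate 2, and 7 without gRc replicate 1, and that of the replication genes was 6 without any 1 of the 3 gRc+H2O2 libraries.

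Genes of the cholesterol pathway were lower throughout. Of 31 genes of cholesterol and fatty acid synthesis, all tested, 20 fell, 0 rose and 0 lay above 0, with a median of -0.75. Lss, lanosterol synthase, had 96.1, 95 and 88.0 CPM with gRc and 34.0, 31.8 and 33.2 CPM with gRc+H2O2 (log2 fold change -1.49, SE 0.16, adjusted p = 2.12e-04). Insig1, a sterol sensor that restrains the pathway, went from 138 ± 6.34 to 65.6 ± 1.99 CPM (SD, n = 3 each; -1.07, SE 0.14). The groups were far apart for both genes. Sqle, squalene epoxidase, fell by 0.48 (SE 0.11) and Elovl6 of fatty acid elongation by 1.62 (SE 0.39). Of the transcription factor genes, Srebf2 passed (-0.51, adjusted p = 0.0495) and Srebf1 did not (-0.61, SE 0.21, adjusted p = 0.0736). When 1 library was left out, between 13 and 23 of the 31 genes fell, with 13 without gRc+H2O2 replicate 1 or 2.

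A CCAAT box, the letters bound by the factor NF-Y, is common to the promoters of sterol and of mitotic genes. The letters CCAAT stood on either strand in 36.3% of all windows, in 17 of 21 windows of the cholesterol and fatty acid list (81%), in 24 of 33 of the mitosis list (72.7%) and in 20 of 33 of the replication list (60.6%). The genes that fell by at least 2-fold as a whole were close to the background, at 38.4%. The letters TTTGAA of the cell-cycle homology region, found in 10.5% of all windows, stood in 12 of 33 mitosis windows (36.4%), and TTTCCCGC of the E2F site, found in 1.78%, in 4 of 33 replication windows (12.1%). Shown with the CCAAT letters of either strand in capitals are Lss (chr10:76531443-76531587, plus strand), Hmgcs1 (chr13:119690206-119690350, plus strand) and Ccnb2 (chr9:70421555-70421675, minus strand), one enzyme each of the late and the early sterol pathway and a mitotic cyclin.
Lss: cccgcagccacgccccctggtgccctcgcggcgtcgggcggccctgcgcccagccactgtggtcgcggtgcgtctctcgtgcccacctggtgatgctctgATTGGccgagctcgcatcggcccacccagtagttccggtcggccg
Hmgcs1: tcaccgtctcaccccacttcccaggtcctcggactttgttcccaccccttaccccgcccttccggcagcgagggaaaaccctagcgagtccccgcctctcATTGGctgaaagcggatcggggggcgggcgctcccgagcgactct
Ccnb2: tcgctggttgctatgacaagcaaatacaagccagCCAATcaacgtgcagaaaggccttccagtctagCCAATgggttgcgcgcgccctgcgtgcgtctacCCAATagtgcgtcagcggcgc
Lss and Hmgcs1 each held 1 box, written as its reverse complement and starting 62 and 45 bases before the start, and Ccnb2 held 3, at 87, 54 and 21 bases. Hmgcs1, an enzyme early in cholesterol synthesis, fell by 0.90 on the log2 scale and Ccnb2, cyclin B2, by 1.05 (SE 0.29, adjusted p = 0.0334).

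Among signals that keep muscle stem cells and growth going, several of the largest falls were found. Heyl, a Notch-induced repressor, went from 33.3, 28.6 and 55.3 CPM to 7.40, 8.49 and 6.60 CPM (-2.38, SE 0.28, adjusted p = 4.03e-04). In the Notch list 5 of 15 tested genes fell, the others being the ligands Dll1 (-1.77, SE 0.28) and Jag2 (-0.86), the modifier Lfng (-1.26, SE 0.16) and the target Hey1 (-1.25, SE 0.22), and 2 rose, the ligand Jag1 (0.70, SE 0.14) and Rbpj, the DNA-binding partner of Notch (1.00). Of these rises 1 was left without any 1 of the 6 gRc and gRc+H2O2 libraries. Fgfr4, an FGF receptor of muscle progenitors, fell from 20.7, 23.2 and 13 CPM to 4.40, 4.26 and 5.09 CPM (-2.05, SE 0.35). Igf1, the growth factor, had 20.5, 24.8 and 30.5 CPM with gRc and 6.14, 6.91 and 5.85 CPM with gRc+H2O2 (-2.0, SE 0.19, adjusted p = 1.27e-04). Its fall depended on the unit, since it was -0.77 with an effective-length correction and -0.69 on log2(TPM + 0.5), and did not pass with either (adjusted p = 0.194 and 0.272).

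Most muscle transcription factors did not pass, but the list leaned down. Of 20 tested, 4 fell and 0 rose, where 8.15% of all genes fell and 7.57% rose. The count of falls was 8 without vehicle replicate 1. The median was -0.42 (-0.25 without gRc replicate 3), and 3 of 20 lay above 0. Among those that fell were Id3 (-1.88, SE 0.24), an inhibitor of MYOD, the satellite cell gene Pax7 (-1.15, SE 0.22) and Myf6 (-1.42, SE 0.29). Pax7 had 16.8, 17.5 and 25.5 CPM with gRc and 9.57, 10.1 and 7.39 CPM with gRc+H2O2. Myod1 was lower in every gRc+H2O2 library, 141, 131 and 141 CPM against 192, 231 and 162 CPM, and narrowly missed the threshold (-0.50, SE 0.16, adjusted p = 0.0538). Myog, the factor of terminal differentiation, had 1070, 1350 and 759 CPM against 852, 879 and 962 CPM, which overlap.

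The myosin heavy chains of adult fast fibres fell, lying in a row on chromosome 11. Myh2 (67171027 to 67197517) had 142, 192 and 115 CPM with gRc and 57.8, 58.3 and 88.3 CPM with gRc+H2O2, and so fell by 1.14 in log2 units with an SE of 0.28 (adjusted p = 0.0186). Myh1 (67200052 to 67224575) went from 2990, 3040 and 2140 CPM to 1150, 1110 and 1590 CPM (-1.08, SE 0.26, adjusted p = 0.0165), and Myh4 (67238029 to 67260446) from 371, 374 and 308 CPM to 170, 165 and 224 CPM (-0.91, SE 0.18, adjusted p = 0.00758). In all 3 genes replicate 3 was the lowest gRc library and the highest gRc+H2O2 library, and the groups still did not overlap. Myh8, the perinatal chain, fell by 0.62 (SE 0.18) and Myh6 by 0.82, and neither call held without gRc replicates 1 or 2 or gRc+H2O2 replicates 1 or 2. That of Myh8 was also lost without H2O2 replicate 1 or 2, and that of Myh6 without H2O2 replicate 3. The embryonic chain Myh3 (-0.88, SE 0.31, adjusted p = 0.0863) and the slow chain Myh7 (-0.84, SE 0.29, adjusted p = 0.0762) overlapped in replicate 3 and did not pass. Sequences of these chains are alike, so that reads shared between them were divided by RSEM. Of 15 heavy and light chain genes 5 fell and 0 rose, and the number was 1 without gRc replicate 2, gRc+H2O2 replicate 1 or gRc+H2O2 replicate 2, 2 without gRc replicate 1 and 8 without vehicle replicate 3. Myh1 and Myh2 were among the calls lost, Myh1 without either of gRc replicates 1 and 2 or gRc+H2O2 replicates 1 and 2 (adjusted p between 0.0539 and 0.0783) and Myh2 without gRc replicate 2 or gRc+H2O2 replicates 1 or 2 (adjusted p between 0.0673 and 0.0825).

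Beyond the myosins, 6 of 42 sarcomere and Z-disc genes fell and 2 rose, where 8.15% of all genes fell and 7.57% rose. The giant proteins were among the former, with Neb, nebulin, going from 801, 742 and 1370 CPM to 429, 467 and 410 CPM (-1.16, SE 0.29) and Ttn, titin, from 1600, 1550 and 2780 CPM to 1070, 1110 and 1090 CPM (-0.86, SE 0.23). Both were highest in gRc replicate 3. The count of sarcomere genes that fell was 0 without gRc+H2O2 replicate 1, 1 without gRc+H2O2 replicate 2, 2 without gRc+H2O2 replicate 3 and 3 without gRc replicate 1. Without gRc replicate 3 it was 4, and the median of the list went from -0.27 to -0.48. The 2 that rose, Lmod2 (0.78) and Ankrd1 (0.66), encode a thin-filament nucleator and a stretch-induced titin-binding repeat protein. Lmod2 missed the threshold without gRc replicate 1 (0.72, adjusted p = 0.0540), and Ankrd1 without gRc+H2O2 replicates 2 or 3 (0.68 and 0.62, adjusted p = 0.0505 and 0.0632). Ryr3, a calcium release channel of the store, fell from 28.6, 34.8 and 28.6 CPM to 10.6, 9.72 and 9.69 CPM (-1.62, SE 0.18, adjusted p = 2.69e-04), 1 of 3 falls among 22 excitation-contraction genes (5 without vehicle replicate 1). At the nerve-muscle junction 5 of 14 genes fell (2 or 3 without any 1 of the gRc+H2O2 libraries or of gRc replicates 1 and 2), among them Lrp4, the agrin receptor, from 310, 318 and 297 CPM to 137, 129 and 154 CPM (-1.14, SE 0.19).

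Genes of muscle wasting rose more often than genes at large, though not as a block. Of 20 atrophy and FOXO genes tested 7 rose and 1 fell, where 7.57% of all genes rose and 8.15% fell. The median was 0.35, 16 of 20 lay above 0, and 4 rose without gRc+H2O2 replicate 2 or 3. The fall was lost without gRc replicate 1 or 2, vehicle replicate 2, H2O2 replicate 1 or 3 or any of the 3 gRc+H2O2 libraries. Trim63, the ubiquitin ligase MuRF1, had 36.5, 33.9 and 27.6 CPM with gRc and 44.6, 45.6 and 60.6 CPM with gRc+H2O2 (0.62, SE 0.16, adjusted p = 0.0261), and this call was lost without gRc replicate 2 or 3 (0.64 and 0.51) or gRc+H2O2 replicate 2 or 3 (0.69 and 0.47). Fbxo32, the ligase atrogin-1, was lower in each gRc+H2O2 library, 70.5, 69.9 and 78.3 CPM against 89.4, 99.1 and 85.5 CPM, without passing (-0.33, SE 0.13, adjusted p = 0.115). Klf15, a glucocorticoid target, rose by 1.93 (SE 0.28) at a low level, from 0.556 ± 0.13 to 2.13 ± 0.122 CPM, and Foxo3 by 0.54 (SE 0.14). Proteasome subunits rose in 3 of 37 cases and autophagy and lysosome genes in 3 of 32, both near the 7.57% of all genes that rose. Either count was 8 without vehicle replicate 1, that of the proteasome was 1 without gRc+H2O2 replicate 1, and that of autophagy was 1 without gRc replicate 1 or gRc+H2O2 replicate 2 or 3. Sqstm1, the cargo receptor p62 and also an NRF2 target, rose by 1.74.

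**Figure D3:**
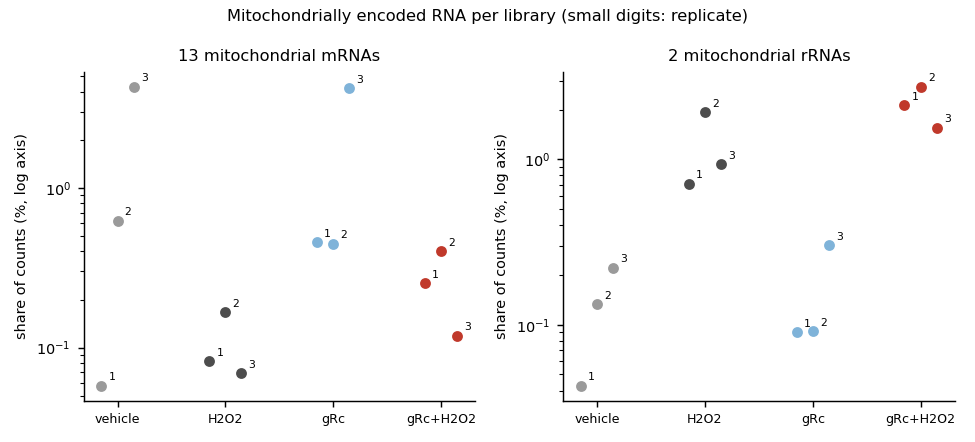
Share of counts (%, log axis) from the 13 mRNAs (left) and the 2 rRNAs (right) of the mitochondrial genome in each library of vehicle, H2O2, gRc and gRc+H2O2, with the replicate number beside each point. With gRc+H2O2 the rRNA share is 1.56% to 2.75% against 0.0899% to 0.304% with gRc, and gRc replicate 3 and vehicle replicate 3 stand out at 4.23% and 4.3% for the mRNAs.

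Transcripts of the mitochondrial genome separated into 2 kinds. The rRNAs were among the largest rises, mt-Rnr1 (chromosome M, 70 to 1024) going from 153, 127 and 606 CPM to 8040, 12000 and 6100 CPM (log2 fold change 4.88, SE 0.96, adjusted p = 0.00670) and mt-Rnr2 from 704, 791 and 2280 CPM to 13000, 15300 and 10000 CPM (3.34, SE 0.61, adjusted p = 0.00455). Mitochondrial rRNAs carry only short A-tails, and the libraries were made from poly(A)-selected RNA. The mRNAs pointed the other way, with 0 of 13 above 0. Their share was 0.457%, 0.447% and 4.23% with gRc and 0.254%, 0.401% and 0.119% with gRc+H2O2. mt-Co1, of cytochrome c oxidase, had 2610, 1950 and 16700 CPM against 1130, 1640 and 595 CPM (-2.66, SE 1.25, adjusted p = 0.193), and only mt-Nd6 (13552 to 14070, the protein gene of the opposite strand) passed (-2.53, SE 0.74, adjusted p = 0.0405). The strand setting of the authors' counting is not given in the sources used here, so its reads and those of transcripts from the other strand may not be separated. The median of -2.53 became -0.62 without gRc replicate 3, and mt-Nd6 then did not pass (-1.76, adjusted p = 0.129). Nor did it pass without gRc replicate 2, vehicle replicate 2, H2O2 replicates 1 or 3 or any of the 3 gRc+H2O2 libraries (adjusted p between 0.0520 and 0.143). With a replicate block the median was -1.52 and mt-Nd6 did not pass (-2.18, adjusted p = 0.0705), nor did it with the effective-length correction (-2.62, adjusted p = 0.0680) or with limma on log2(TPM + 0.5) (-2.44, adjusted p = 0.0938).

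No nuclear gene of the respiratory chain passed in this comparison: of 66 tested, 0 rose and 0 fell in edgeR, and the median was -0.12. Of the 66, 22 lay above 0, where 47.0% of all genes did. Without gRc replicate 3 and vehicle replicates 1 and 3 together, 5 rose and 12 fell, with the median again at -0.12. Regulators of mitochondrial biogenesis and mitophagy rose in 9 of 30 cases and fell in 1 (0 without gRc replicate 3 or gRc+H2O2 replicate 1 or 3). Nrf1, the nuclear respiratory factor, went from 18.9, 16.9 and 21.8 CPM to 30.4, 29.7 and 30.8 CPM (0.66, SE 0.14, adjusted p = 0.00895), Tfam, the packaging and transcription factor of mitochondrial DNA, rose by 0.67 (SE 0.16), Sirt1 by 1.24 (SE 0.28) and Pprc1, a relative of PGC-1, by 0.91. Ppargc1a, the PGC-1 alpha gene, was low, at 0.611, 0.772 and 0.803 CPM with gRc and 0.400, 0.473 and 0.528 CPM with gRc+H2O2. These did not overlap, and the difference of -0.64 (SE 0.45) did not pass (adjusted p = 0.393). The call of Nrf1 was lost with the effective-length correction (0.57, adjusted p = 0.123) and on TPM (0.55, adjusted p = 0.155).

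In the endoplasmic reticulum and chaperone lists the share that rose lay near the 7.57% of all genes. In the endoplasmic reticulum list of 28 genes tested 3 rose (6 without vehicle replicate 1 and 5 without vehicle replicate 3), Ero1l, an oxidase of disulphide formation (33.5 ± 4.69 to 174 ± 8.71 CPM, 2.38, SE 0.16), Herpud1 (1.17, SE 0.14) and the sensor gene Ern1 (0.65), whereas the chaperone Hspa5 overlapped (0.78, SE 0.45, adjusted p = 0.291). Of 31 cytosolic chaperone genes 3 rose, all of the DNAJ family, with Dnajb4 at 1.09 (SE 0.13), and Hspa1a, which shares reads with its near-identical copy, was not higher at 12.4 ± 0.42 against 11.3 ± 1.95 CPM. Glucose uptake and its use in glycolysis contributed Slc2a1, the transporter GLUT1 (48.2, 48.3 and 57.3 CPM against 157, 188 and 206 CPM, 1.84, SE 0.14), and Hk2, hexokinase (1.66, SE 0.28), to 5 rises and 1 fall among 30 genes (0 falls without gRc replicate 1 or 2 or any of the 3 gRc+H2O2 libraries), together with the angiogenic factor Vegfa (1.53, SE 0.13). Of 22 NF-kB genes 6 rose (3 without gRc replicate 1 or 2 or gRc+H2O2 replicate 2 or 3) and 2 fell (0 without gRc+H2O2 replicate 3), the rises led by Ptgs2, cyclooxygenase, from 15.6, 16.0 and 23.0 CPM to 100, 107 and 101 CPM (2.49, SE 0.33), with the chemokine Cxcl12 falling (-1.40, and -1.22 with adjusted p = 0.0599 without gRc+H2O2 replicate 3).

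Interferon-stimulated genes rose in 9 of 22 cases (6 without gRc replicate 3) and fell in 1, and 0 fell without gRc replicate 1 or 3, H2O2 replicate 3 or any of the 3 gRc+H2O2 libraries. Mx2, an antiviral GTPase, and Irf7, the interferon regulator, were low in all 6 libraries. Mx2 went from 0.468, 0.487 and 0.482 CPM to 2.63, 2.84 and 3.81 CPM (2.68, SE 0.42) and Irf7 from 0.791, 1.06 and 0.963 CPM to 2.90, 3.57 and 2.49 CPM (1.67, SE 0.32). Markers of macrophages or leukocytes summed to 1.22 to 3.34 CPM with gRc and 1.77 to 2.46 CPM with gRc+H2O2 and overlapped. Extracellular matrix genes fell in 6 of 30 cases and rose in 0, with Col12a1, a fibril-associated collagen, going from 500, 481 and 624 CPM to 212, 207 and 197 CPM (-1.38, SE 0.14). The fibroblast-like markers summed to 3820 to 9880 CPM against 3350 to 4900 CPM, with 0 of 5 past the test and Tcf21 at 0 in all 6 libraries, and their part in the matrix genes was not tested. Pparg, the adipocyte factor, rose from 3.20, 4.02 and 5.01 CPM to 7.97, 8.30 and 7.88 CPM (0.98, SE 0.18), while Cfd, an adipocyte product, was at 0 in all 6 libraries. TGF-beta and BMP genes rose in 4 and fell in 2 of 34 cases, and secreted stress factors rose in 5 and fell in 1 of 21. Over all genes 7.57% rose and 8.15% fell, and the TGF-beta and BMP counts lie near these shares. The TGF-beta and BMP rises were 1 without gRc replicate 1 or 2 or any of the 3 gRc+H2O2 libraries and 2 without vehicle replicate 2 or any of the 3 H2O2 libraries, while the falls were 5 without vehicle replicate 1 and 1 without gRc replicate 1 or any of the 3 gRc+H2O2 libraries. The secreted factors that fell were 3 without vehicle replicate 1 or 3 and 2 without gRc replicate 3.

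The 15 largest rises and 15 largest falls among genes averaging 2 or more in log2 CPM included genes outside the lists. Foxq1, a forkhead transcription factor, rose from 4.89, 6.54 and 5.59 CPM to 58.3, 66.6 and 81.3 CPM (3.60, SE 0.20, adjusted p = 4.61e-06), and Slc19a2, a thiamine transporter, from 6.62, 6.05 and 6.13 CPM to 49.3, 50.5 and 52.8 CPM (3.02, SE 0.20). Mir17hg, the host gene of the miR-17 cluster, rose by 2.79 (SE 0.20) and Adm2, a secreted peptide of the adrenomedullin family, by 2.66 (SE 0.39). Scml4, of the Polycomb-related SCM family, fell from 29.1, 24.3 and 28.9 CPM to 4.17, 4.89 and 4.94 CPM (-2.55, SE 0.15, adjusted p = 7.42e-06). The largest fall among these was that of Smim5, a small membrane protein gene (17.6, 12.8 and 10.9 CPM against 1.63, 1.70 and 2.30 CPM, -2.87, SE 0.32), followed by Fam78a (-2.70, SE 0.27). Also in this group were Col13a1, a membrane collagen of the nerve-muscle junction (-2.29, SE 0.50), Nrep (-2.07), Sec16b of the endoplasmic reticulum exit sites (-2.07), the transcription factors Sox8 (-2.02), Tcf19 (-1.96) and the p53 relative Trp63 (-1.96), and Gprin3 (-1.94). The call of Col13a1 was lost without gRc+H2O2 replicate 2 (-2.06, adjusted p = 0.0559).

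The response was then set beside that of cells given vehicle in place of gRc, a comparison that shares no library with it. The baselines were nevertheless alike by replicate: vehicle replicate 3 lay at 82.3 on the principal component with 43.1% of the variance, near gRc replicate 3 at 84.2. Libraries of gRc and vehicle with the same number deviated together from their group means (correlations 0.46, 0.271 and 0.86). Such shared deviations move both responses the same way, and their part in the likeness below was not tested. H2O2 against vehicle gave 2323 genes (15.7% of those tested), of which 1159 (7.81%) rose and 1164 (7.84%) fell. Of all these calls, 1789 genes passed in both comparisons, 76.7% of the calls with gRc and 77.0% of the calls with vehicle. All 1789 had the same direction, 890 up and 899 down. Of the 2332 genes called with gRc, 2330 (99.9%) had the same sign with vehicle, against 80.3% of the genes not called. Across the 10842 genes whose average level was 2 or more in log2 CPM the log2 fold changes had a Pearson r of 0.879, given as a description across genes, which are not independent.

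**Figure D4:**
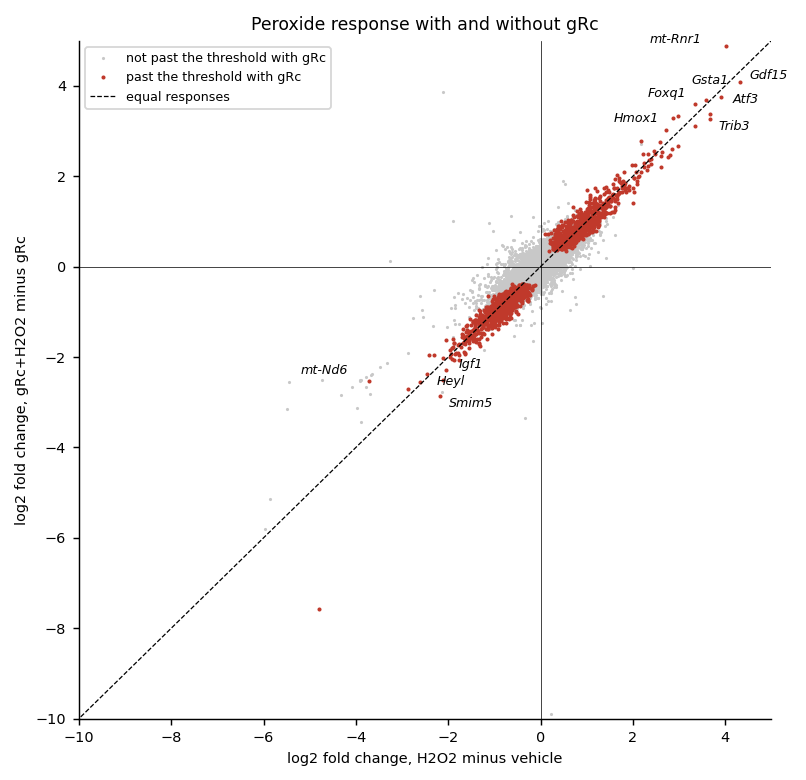
Log2 fold change with gRc (vertical axis) against that with vehicle (horizontal axis) for the 10842 genes whose average log2 CPM was 2 or more, red where the gene passed with gRc, grey where it did not, with equal responses on the dashed line. Called genes lie along the line from Smim5 at -2.87 to mt-Rnr1 at 4.88, and the red point far below is the mitochondrial-like pseudogene Gm10222 at -7.58 (SE 2.15).

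The difference of the responses was tested directly, as gRc+H2O2 minus gRc less H2O2 minus vehicle. In edgeR 0 of 14838 genes passed, 87 had an unadjusted p under 0.05 (0.586%), and the smallest adjusted p was 1.00. This share is far below the 0.05 that evenly spread p-values would give, so these p-values ran high and the test was cautious. The 0 calls therefore do not show that the responses were equal, and the reason for the high p-values was not tested. In DESeq2 1 gene, Gm7645, passed, and 82 had an unadjusted p under 0.05. In edgeR the 87 became 522 without vehicle replicate 1, 430 without gRc replicate 3, 161 without vehicle replicate 2, 135 without H2O2 replicate 2, 57 without gRc replicate 1 and 54 without gRc+H2O2 replicate 2, and 1386 without gRc replicate 3 and vehicle replicates 1 and 3, each time with 0 genes past the threshold. Over the genes called with gRc the median size of the difference was 0.14 against a median log2 fold change of 0.93 in size, and the median half-width of the 95% interval was 0.59. That interval is for a single gene, and passing after adjustment over all genes takes a larger difference. Pooled over the genes called in both comparisons, the differences did not lean to either side. Of the 890 genes that rose in both 472 rose less with gRc, and of the 899 that fell in both 431 fell less. Single lists were less even. The change was smaller in size with gRc for 18 of 20 tRNA synthetases and 25 of 36 ribosome biogenesis factors, but for 4 of 15 myosin chains and 10 of 30 matrix genes. It was smaller for 13 of 13 mRNAs of the mitochondrial genome, with medians of -2.53 with gRc and -3.88 with vehicle. Replicate 3 of gRc and of vehicle held far more of these mRNAs than the other libraries. Other lists leaned too, such as 21 of 31 chaperone genes and 6 of 22 excitation-contraction genes. These leans were not tested. For Gdf15 the difference was -0.25 (95% interval -0.68 to 0.17), for Atf3 -0.16 (-0.74 to 0.41), for Srxn1 -0.17 (-0.56 to 0.22) and for Gclm -0.06 (-0.41 to 0.30). For the myosin genes it was -0.33 for Myh1 (-1.12 to 0.46), -0.43 for Myh2 (-1.28 to 0.43) and -0.30 for Myh4 (-0.87 to 0.27). Of the myosin list, 1 of 15 genes passed with vehicle and 5 with gRc, yet for none did the difference itself pass.

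**Figure D5:**
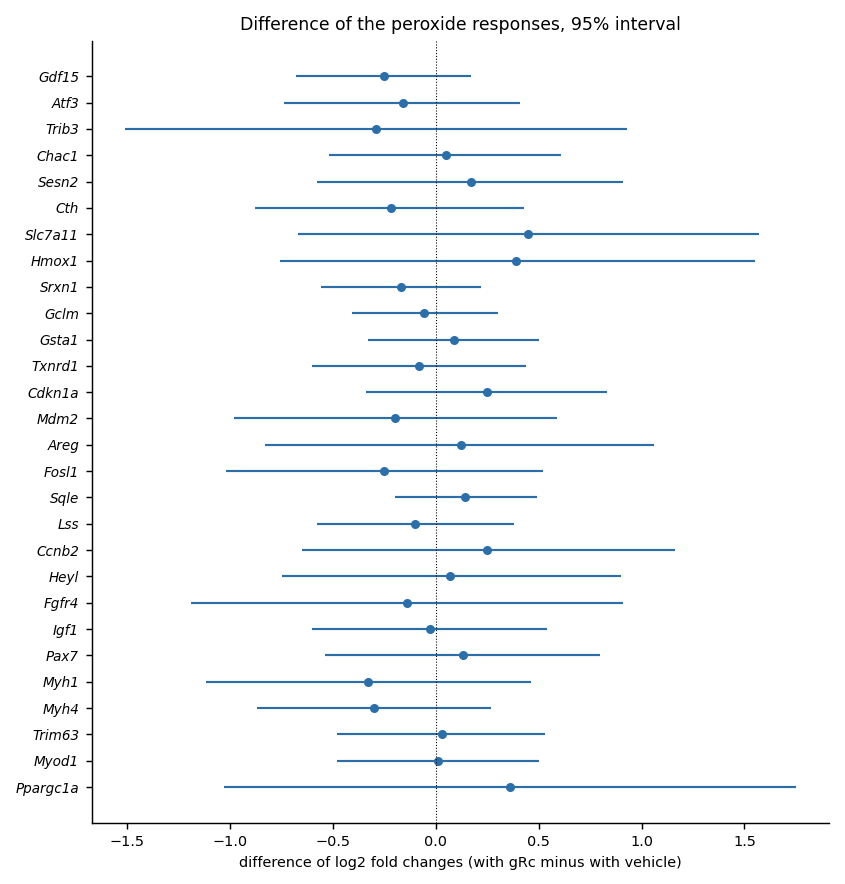
Difference of the log2 fold changes, with gRc minus with vehicle (horizontal axis), for 28 genes (points) with its 95% interval (lines). All 28 intervals span 0, from narrow ones such as Sqle (-0.20 to 0.49) to wide ones such as Ppargc1a (-1.03 to 1.75).

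The genes with the smallest p of the difference, again among genes averaging 2 or more in log2 CPM, were Gm45140 (2.08, 95% interval 0.90 to 3.25, unadjusted p = 0.00251), Mrpl19, of the mitochondrial ribosome (-0.56, unadjusted p = 0.0122), Gm29609 (-2.01), Tmem252 (0.79) and Zfp445, a zinc finger gene (-0.62), each with an adjusted p of 1.00. Mrpl19 had 36.5, 34.5 and 29.5 CPM with gRc and 34.1, 33.1 and 31.8 CPM with gRc+H2O2, which overlap, where it had risen by 0.54 (SE 0.13) with vehicle. Mir17hg had a difference of 0.62 (0.04 to 1.19, unadjusted p = 0.0389). The 2 called genes whose sign was opposite with vehicle were chosen after their values were seen. Gm7645, a processed pseudogene (chromosome 2, 181292148 to 181292935), had 25, 31 and 9 counts with gRc, 0 counts in all 3 gRc+H2O2 libraries, 17, 18 and 5 counts with vehicle and 24, 23 and 20 counts with H2O2. Against a floor of 3 counts over the group it was at least 22.8-fold lower with gRc+H2O2 than with gRc, and edgeR gave its difference an unadjusted p of 3.33e-04 (adjusted p = 1.00). Gm37206 had 55, 35 and 39 counts with gRc and 17, 13 and 8 counts with gRc+H2O2 (-1.85, SE 0.51), where H2O2 against vehicle gave 0.84 (SE 0.48).

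The last list held the genes of the proteins blotted in these cells, of which 2 of 12 rose (Nrf1 and Trim63) and 4 fell (Myh1, Myh2, Myh4 and Myh8), and the difference of the responses passed for none of the 12. Over all genes 7.57% rose and 8.15% fell. Several heavy chain genes stood for the MyHC protein, and all the falls were among them. The values are RNA after 6 h of peroxide, whereas the paper's MyHC staining of myotubes followed 24 h. They were not set against the blots. The falls were 1 without gRc replicate 2 or gRc+H2O2 replicate 1 or 2, 2 without gRc replicate 1 and 7 without vehicle replicate 3, and the rises were 1 without gRc replicate 2 or 3 or gRc+H2O2 replicate 2 or 3.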

How the data were processed

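The 12 libraries were poly(A)-selected, directional and read as pairs. Per the study's methods, reads were trimmed and then mapped to GRCm38 with STAR 2.7.3a by the authors, who deposited expected counts, effective lengths and TPM per gene from RSEM 1.3.3. Expected counts were rounded to whole numbers. Genes with too few reads were removed with filterByExpr of edgeR 4.0.16 (minimum count 10), and 14838 genes were scaled by TMM and fitted in 1 quasi-likelihood model of the 4 groups over all 12 libraries, with Benjamini-Hochberg adjustment over all genes tested and a threshold of 0.05. The difference of the responses was the interaction contrast of that model, and each SE was taken from the fold change and the F statistic of its test. Alternatives used DESeq2 1.42.0, limma 3.58.1 on log2(TPM + 0.5), an effective-length offset, a GC correction, other filters and each library left out. Gene coordinates are those of GENCODE M21 on GRCm38, and gene symbols were taken by gene identifier from a separate list of names. Promoter windows are those of RefSeq on GRCm38.p6, with the first listed start of each gene. The letters searched were kept from a larger set that was tried.

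The script was tested on simulated counts drawn independently for each library. They held no outlying library and no deviation shared between libraries, so the effect of either on the tests was not examined. The comparison, its gene lists and the promoter letters were chosen with earlier results of these data known. Genes are named by rule as the 15 largest rises and falls among genes that passed, did not overlap between the groups, had an average log2 CPM of at least 2 and had no predicted or clone name, the 4 members with the smallest p in each list, the genes of the proteins measured in the study and the 5 genes with the smallest p of the difference. A few genes, some of them named by this rule, are not reported here. Other members were named for their known roles after their values were seen, and were followed through the alternatives only as members of their lists.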

Additional observations from a re-analysis of the deposited data

How the results depend on the processing

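Of the 156 genes named by rule and reported that passed, 104 passed under every alternative that tested them (24, or 23 for mt-Rnr1, mt-Rnr2 and Klf15), 52 lost the call under at least 1, and 0 changed sign. The 2332 genes called (1123 rose, 1209 fell) became 1459 on log2(TPM + 0.5) with limma (656 and 803), and 5120 (2540 and 2580) without gRc replicate 3 and vehicle replicates 1 and 3, chosen after the data were seen. With 1 library left out the count ran from 1205 to 3267, that of rises from 622 to 1552 and that of falls from 583 to 1715. For the difference of the responses, DESeq2 called 1 gene and every other alternative 0. H2O2 against vehicle, 2323 genes, gave 668 when those groups were fitted alone, 1492 with limma and 1290 to 3123 with 1 library left out. The cause of these changes was not tested.

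Signs turned for genes that had not passed. In gRc+H2O2 against gRc, Mrpl19 ran from -0.11 to 0.04 with 1 library left out, and Gm29609 was at 0.64 with limma and 0.58 with the effective-length offset. Zfp445 was at -0.01 with the GC correction, ran up to 0.20 with 1 library left out, and was at -0.01 without gRc replicate 1, -0.12 without gRc replicate 3, -0.03 without gRc+H2O2 replicate 3 and -0.13 without the 3 libraries.

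gRc+H2O2 and gRc libraries of the same replicate number did not deviate together from their group means (correlations 0.0206, -0.496 and -0.55), so the numbers were not used as pairs in that comparison, and libraries 2 and 3 did not correlate best with their own number. Same-numbered libraries did deviate together for gRc and vehicle (0.46, 0.271 and 0.86), and less evenly for gRc+H2O2 and H2O2 (0.0802, 0.402 and 0.309) and for H2O2 and vehicle (0.44, 0.294 and -0.283). A replicate block gave 2354 calls and 0 for the difference, against 2332 and 0, and 96 genes with an unadjusted p under 0.05 for the difference, against 87. The median of all genes lay between -0.06 and 0.00, and rises made up 45.0% to 51.9% of the calls over the settings run.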
